A study of Bos taurus with 12 samples.

Results

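Granulosa cells, which form the inner epithelium of the ovarian antral follicle, were compared between medium and small follicles of cattle. The comparison rests on 2 arrays of granulosa cells from medium follicles (5 to 10 mm across) and 2 arrays from small follicles (up to 5 mm), 4 of the 12 arrays of the series. Arrays were chosen by the layer and size in their titles. Granulosa cells of large follicles (over 10 mm) and theca cells, the steroid-producing layer outside the follicle's basement membrane, were used beside them, with 2 arrays for each layer and size. Transcripts were read on 1-colour Affymetrix bovine arrays with biotin-labelled total RNA.

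All groups came from untreated cycling heifers. Ovaries were in the follicular stage, without a corpus luteum, and were carried to the laboratory on ice. Healthy and atretic follicles of 1 size class are not separated in the labels. Each RNA sample was a pool, described as cells of 20 to 40 follicles in the extraction protocol and as material of 20 to 40 ovaries from 6 to 10 animals in the design text. The 2 replicates of a group are labelled as separate biological replicates, and nothing says whether pools shared animals. The description field names theca for all 12 samples, against the titles and source names, which give granulosa for 6 of them. The layers of the titles were used. In whole pools of cells, fewer cells of a type and less RNA per cell cannot be told apart.

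As a follicle grows through these sizes in cattle, its granulosa cells divide under FSH and acquire aromatase, which turns androgens from the theca into oestradiol. They also secrete inhibins and activins, dimers of a shared family of subunits that act on the pituitary and within the follicle. IGF binding proteins and their proteases set how much insulin-like growth factor reaches the cells, and LH receptors appear on granulosa cells late, as a follicle becomes dominant. Genes of ovulation, such as those for prostaglandin synthesis and for the expanding matrix, are known to be switched on by the LH surge.

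Theca markers set the 4 arrays apart from theca arrays, while granulosa markers did not do so in every case. The summed signal of 16 granulosa markers was 39368 and 37006 on the medium arrays and 32951 and 39280 on the small arrays, against 10152 to 33902 on the 6 theca arrays. The highest of these, theca large replicate 2, lay above small replicate 1. For 9 theca markers the sum was 3849 and 2369 on the medium arrays and 3634 and 3344 on the small arrays, against 24009 to 37450 on the 6 theca arrays. CDH5, the cadherin of endothelium, was at 34.7 and 18.7 in medium and 23.3 and 18.1 in small, against 65.5 to 320.6 on theca arrays. HBB, the beta-globin of red blood cells, was at 34.7 and 12.1 in medium and 7.9 and 17.1 in small. Values of the 2 medium arrays correlated at 0.918 (Spearman, across probe sets) and those of the 2 small arrays at 0.924, while the 4 pairs of a medium and a small array gave 0.894 to 0.943. The arrays of 1 size were thus no more alike than arrays of different sizes. Most alike were the medium and small arrays of the same replicate number, at 0.939 and 0.943. The 3′ to 5′ signal ratio of the GAPDH control probe sets was 0.984 to 1.07 on these 4 arrays. The same ratio for actin was 4.22 and 4.25 on the medium arrays and 2.39 and 3.97 on the small arrays. It was thus higher on both medium arrays, and its part in the differences was not tested. The GAPDH ratio reached 8.36 on theca small replicate 1, and the actin ratio reached 21 on granulosa large replicate 1. Those 2 arrays are not part of the comparison, but they enter the common estimate of the spread.

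Of 17236 tested probe sets, 1 passed the test at an adjusted p under 0.05 (limma, Benjamini-Hochberg), which is 0.0058%. It was lower in medium follicles, and 0 probe sets were called higher. This probe set has no gene name in the annotation used here, and no sequence of it was used. Its signal was 130.1 and 66.4 in granulosa cells of medium follicles and 648 and 603 in those of small follicles. The signal fell by 2.55 ± 0.34 (log2 ± SE, n = 2 each) in medium follicles, 5.85-fold, with an adjusted p of 0.0469. On large granulosa arrays the probe set read 124.4 and 152.5, beside 65.8 and 51.6 in theca of medium follicles and 190.3 and 154.1 in theca of small follicles. Leaving out any 1 of the 4 arrays ended the call, while the difference stayed at -2.96 to -2.13. A group of 1 array widens the standard error whichever array is left out, so the loss of the call says nothing about that array. Without granulosa large replicate 1 and theca small replicate 1, which stand apart in their control ratios, 12 probe sets were called, 11 of them lower in medium follicles. The 1 called higher was CYP19A1 (adjusted p = 0.0498), and the genes called lower included MEST, CARTPT, RPRM, TNFRSF6B, PTGES, ORM1, GAL and SERPING1. With 1 array left in each of those 2 groups, neither group adds to the estimate of the spread, whichever replicate is left out. The calls gained therefore say nothing about the control ratios. A model of the 4 arrays alone also called 12 probe sets, 6 in each direction, with CYP19A1, INHBA and LRP8 higher and KRT18 lower among them.

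None of the 7893 named genes was called (0%), each taken at its brightest probe set. At an unadjusted p under 0.05 there were 276 genes, 98 of them higher in medium follicles (1.24% of all genes) and 178 lower (2.26%). Together these were 3.5% of the genes (581 of all probe sets, 3.37%). With no change anywhere 5% would be expected, so these counts are no more than that. Groups that did not overlap, with both medium arrays on the same side of both small arrays, were found for 1031 genes in the higher direction (13.1%) and for 1063 in the lower (13.5%). These shares are the measure for the lists below, where a count of members without overlap is not by itself a result. With a change of at least 1 on the log2 scale as well, 57 genes were higher (0.722%) and 105 lower (1.33%). The median change over all tested probe sets was 0.0013 and the median standard error 0.38. With 2 arrays on each side, the smallest two-sided p of an exact permutation test is 0.333. That is also the share without overlap, both directions together, expected of exchangeable arrays, and the 2 observed shares together lie below it. The genes below are therefore given by their values, and none of their differences passed the adjusted test in the model over all 12 arrays. Of 31 gene lists, the median difference of 15 changed sign when 1 of the 4 arrays was left out, and that of 11 others moved by over 1.5 times. The other 5 were steroidogenesis, the IGF system, LH surge and ovulatory genes, immediate early and heat shock genes, and smooth muscle markers. Their medians still moved with other settings. With all probe sets of a gene counted, that of LH surge and ovulatory genes went from -0.48 to -0.23. With log2(signal + 64), that of smooth muscle markers went from -0.26 to -0.11.

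**Figure D1:**
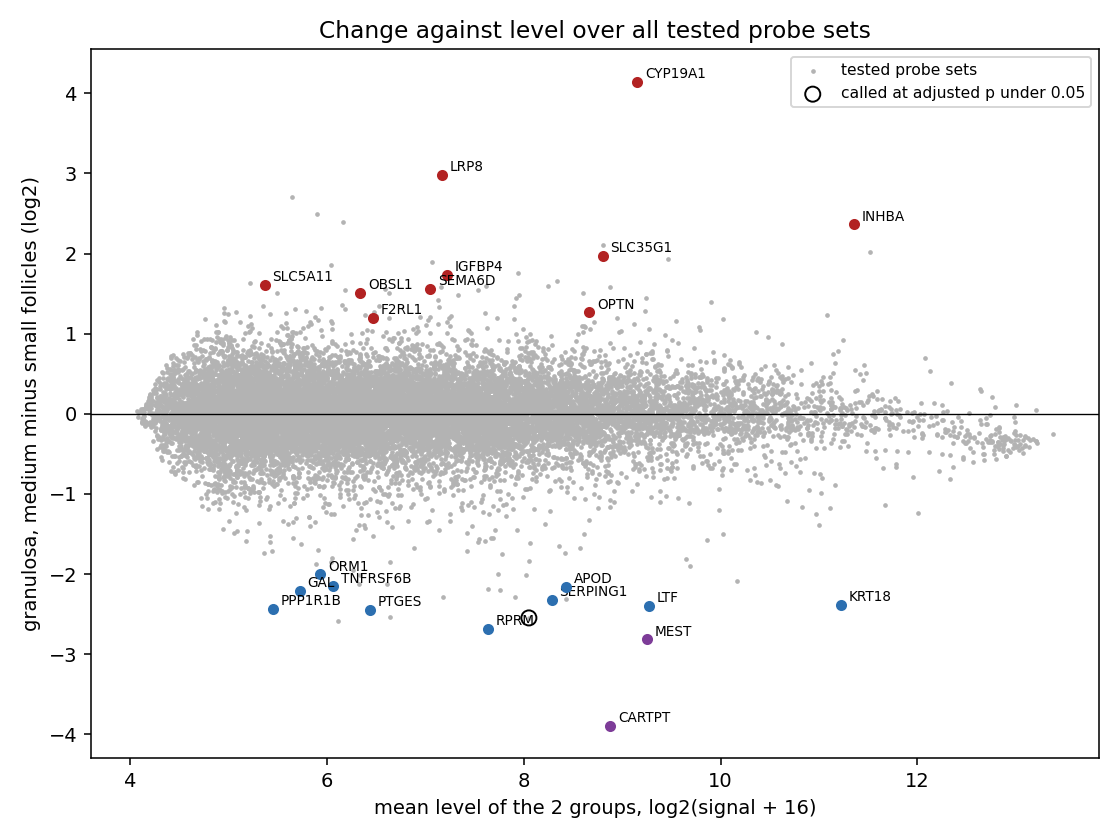
Medium minus small difference of each tested probe set in granulosa cells (y axis, log2) against the mean level of both groups (x axis, log2(signal + 16)). Grey points are all 17236 probe sets, coloured points the named genes, and the ring marks the 1 called probe set, at -2.55; CYP19A1 is the highest point and CARTPT the lowest.

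CYP19A1 encodes aromatase, which makes oestradiol from androgens. Its signal was 3114 and 1819.7 in medium follicles and 113 and 126 in small follicles. The groups were far apart, with a difference of 4.14 ± 0.63 (log2 ± SE), 17.7-fold, and an adjusted p of 0.0621 (limma). The mean was 2467 ± 915 in medium and 119.7 ± 9.5 in small follicles (SD, n = 2 each). The standard error pools the spread within all 6 groups, and theca replicates read 912 and 184 in medium and 1633 and 4279 in large follicles. In limma fits of fewer arrays the adjusted p was 0.0024 (granulosa arrays alone) and 0.00091 (the 4 arrays alone). With log2(signal + 1) or the replicate block, 0 probe sets were called. A second, dimmer probe set for the gene read 143.5 and 153.2 in medium and 16.4 and 14 in small, a difference of 2.40 ± 0.51. In large follicles the first probe set read 3134 and 1820.5, close to the medium values, and the large minus medium difference was 0.0050.

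The other enzymes of steroid synthesis differed less. CYP11A1, the side-chain cleavage enzyme that starts the pathway from cholesterol, read 2824 and 2982 in medium and 1560.2 and 1916 in small (0.74 ± 0.39, adjusted p = 1). CYP17A1, the androgen-making enzyme of theca cells, was dim in granulosa cells at 75.8 and 65.1 in medium and 26.5 and 39.2 in small, against 1786 to 5781.5 on theca arrays. Groups of both genes did not overlap, unlike those of the next 3. STAR, which carries cholesterol into the mitochondrion, had 2782 and 811 in medium and 1775 and 1226 in small. HSD3B1, which makes progesterone and androstenedione, had 2300.4 and 1264 in medium and 1561 and 1505 in small. HSD17B1, which reduces oestrone to oestradiol, spread widely within each size, at 674 and 3113 in medium and 1302 and 3592 in small. Of 14 tested steroidogenic genes, 0 were called, and 12 were higher in medium and 2 lower. Of the 14, 6 were higher without overlap (share over all genes 13.1%). Their median difference was 0.36, against 0.0018 over all genes.

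Receptors for the gonadotrophins showed no difference beyond their spread. FSHR, the FSH receptor, read 108 and 332 in medium and 149 and 160.1 in small (0.29 ± 0.64), with both small arrays between the medium ones. LHCGR, the LH receptor, was at the low end of the array's range at 8 and 21.9 in medium and 3.1 and 9.8 in small, while large follicles read 41.4 and 39.8. PDE8A, a cAMP phosphodiesterase, was at 138 and 149 in medium and 121 and 92.7 in small. In the list of gonadotrophin receptors and cAMP signalling, 0 of 12 tested genes were called, 9 were higher in medium and 3 lower. Of the 9 higher genes 3 did not overlap (share over all genes 13.1%).

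INHBA, the beta-A subunit shared by inhibin A and activin A, was the member of its family with the widest separation. It read 6564 and 5362 in medium and 1205 and 1078 in small, 5.15-fold (2.36 ± 0.50, adjusted p = 0.255). Large follicles had 5342 and 2959. The alpha subunit of inhibin, INHA, overlapped between sizes, at 7521 and 6624 in medium and 3917 and 8589 in small. FST, follistatin, which binds and neutralises activin, overlapped as well, at 7409 and 7118 in medium and 5919 and 7964 in small. AMH, a TGF-beta family hormone typical of small growing follicles, had 130.0 and 616 in medium and 428 and 861 in small (-1.04 ± 0.57). The medium replicates of AMH differed more from each other than the group means did. Across 24 tested genes of the inhibin, activin, TGF-beta and BMP list, 0 were called, and 18 were higher and 6 lower in medium follicles. Without overlap 8 were higher and 1 lower (shares over all genes 13.1% and 13.5%), and the list median was 0.27.

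**Figure D2:**
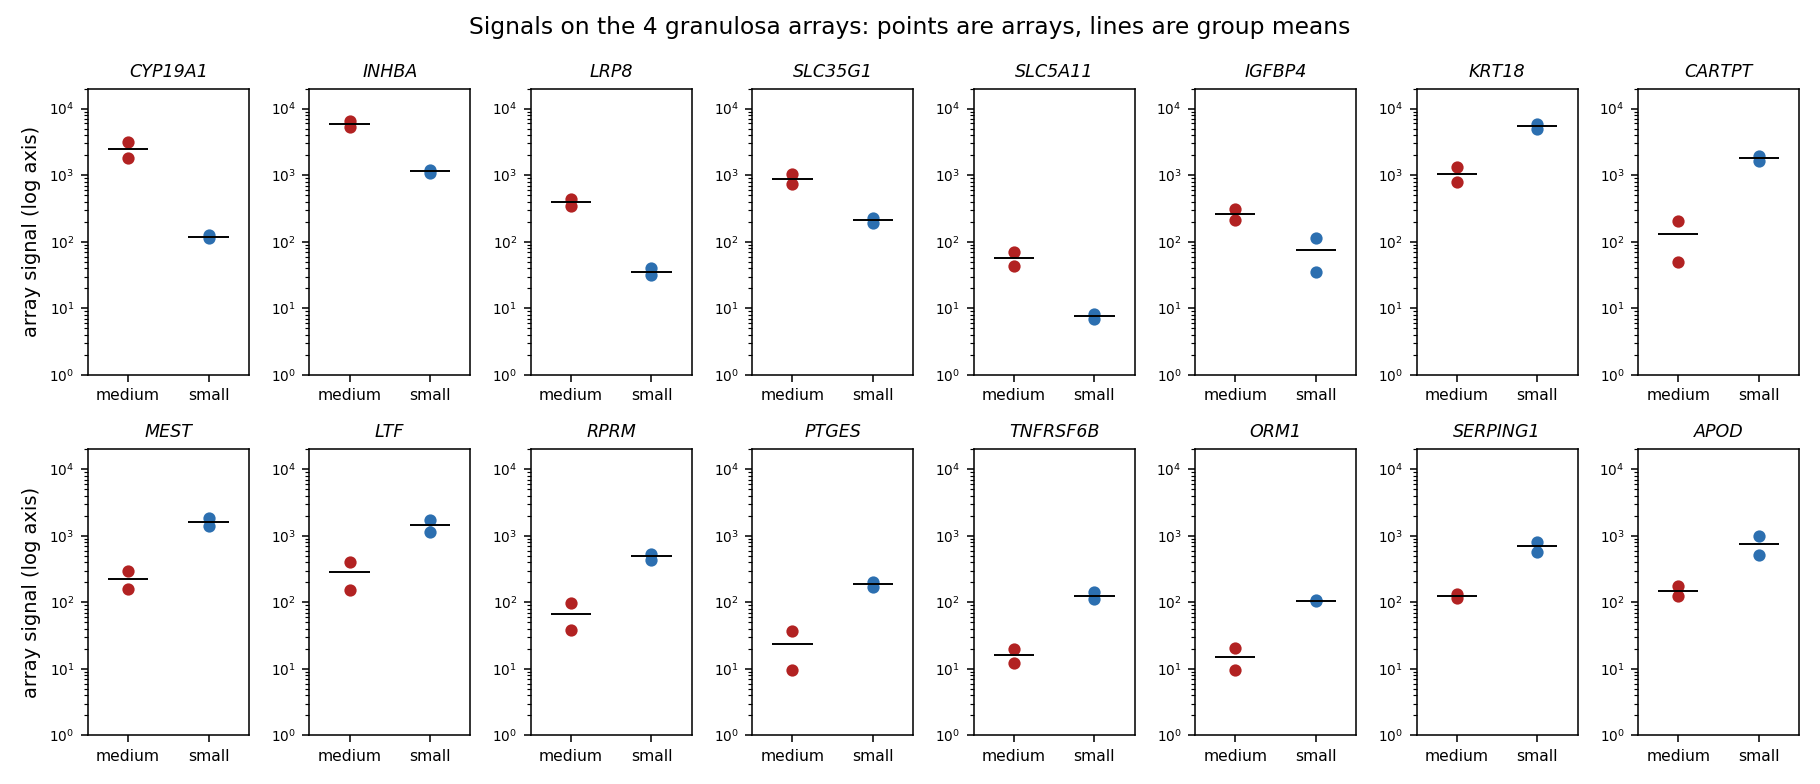
Signal of 16 named genes on the 4 granulosa arrays (log axis), with medium follicles on the left and small follicles on the right of each panel; points are arrays and lines are group means. In each panel the medium points and the small points do not overlap: the first 6 genes, from CYP19A1 to IGFBP4, are higher in medium follicles, and the other 10 are lower. The lack of overlap follows from the choice of genes: the rule required it, and CARTPT and MEST were chosen after their values were seen.

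In the IGF system 9 of 11 tested members were lower in medium follicles, 4 of them without overlap (share over all genes 13.5%). Of the 11, 0 were called, and the median difference was -0.40. IGFBP3, the main IGF carrier of serum, read 53.4 and 35.9 in medium and 127 and 93 in small (-1.06 ± 0.39). IGFBP5, another binding protein, read 431 and 452 in medium and 963 and 964 in small (-1.10 ± 0.46). The exception among the binding proteins was IGFBP4, known to hold IGF away from its receptor until a protease of the follicle cleaves it. It read 212 and 306 in medium and 35.3 and 113 in small, 3.33-fold (1.74 ± 0.47, adjusted p = 0.649). On theca arrays IGFBP4 read 633 to 1965, and the part of theca cells in its granulosa values was not tested.

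By the rule for named genes, 10 genes were taken in each direction, those of smallest p with a change of at least 1 on the log2 scale and no overlap. Each gene stood for its brightest probe set, so the 10 are not all of the strongest rises. A probe set of TRIB2 outside the rule read 1259 and 1486 in medium and 345 and 351 in small (1.93 ± 0.40, adjusted p = 0.245, limma). Among the 10 higher genes, CYP19A1 and INHBA are described above. LRP8, a receptor of the LDL receptor family that binds reelin and apolipoprotein E, read 349.6 and 433 in medium and 31.2 and 39.8 in small, 7.89-fold (2.98 ± 0.73, adjusted p = 0.481). SLC35G1, a membrane protein of the solute carrier family, read 727 and 1032 in medium and 193 and 227 in small (1.97 ± 0.46). Its second probe set gave a similar difference, 1.89. SLC5A11, a sodium-coupled carrier of myo-inositol, read 44 and 70.5 in medium against a dim 6.9 and 8.3 in small (1.61 ± 0.34). The pseudocount of 16 understates the fold of a gene this dim.

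The remaining genes of this direction had smaller differences. SEMA6D, a transmembrane semaphorin, read 219 and 205 in medium and 94 and 38.1 in small (1.56 ± 0.45). OBSL1, a cytoskeletal adaptor, read 139 and 104 in medium and 22.3 and 44 in small (1.51 ± 0.42). OPTN, optineurin, an adaptor of vesicle traffic and autophagy, read 489 and 767 in medium and 275 and 219 in small (1.27 ± 0.36). Both other probe sets of OPTN were also higher without overlap, at 1.01 and 1.21. F2RL1, a receptor activated by serine proteases, read 106 and 132 in medium and 43 and 41.8 in small (1.20 ± 0.35). IGFBP4 completes the 10, whose adjusted p-values ran from 0.0621 for CYP19A1 to 0.893 for F2RL1.

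The 10 genes in the lower direction had adjusted p-values over 0.05 as well. KRT18, a keratin of simple epithelia that granulosa cells carry, read 1318 and 801 in medium and 5964 and 4945 in small, 5.22-fold lower (-2.38 ± 0.40, adjusted p = 0.0788). LTF, lactoferrin, an iron-binding protein of secretions, read 155 and 408 in medium and 1713 and 1154 in small (-2.40 ± 0.46, adjusted p = 0.218). SERPING1, the C1 inhibitor of the complement cascade, read 116 and 131 in medium and 567 and 814 in small (-2.32 ± 0.41). Its second probe set gave -2.58. On theca arrays the first probe set read 884 to 2012, and the part of theca cells was not tested. ORM1, the acute-phase protein orosomucoid, read 9.6 and 20.3 in medium and 108 and 104 in small (-2.01 ± 0.32, adjusted p = 0.0765).

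APOD, apolipoprotein D, was a theca marker here and read 124 and 176 in medium and 989.8 and 514 in small granulosa (-2.16 ± 0.39), against 3240.2 to 9015 on theca arrays. Of the 8 tested theca markers 5 were higher in medium and 3 lower, with a median of 0.048, and APOD was the 1 that was lower without overlap. COL1A1 was at 266 and 69.9 in medium and 159 and 394 in small, and INSL3, the insulin-like hormone of theca cells, at 316 and 995 in medium and 456 and 928 in small. The part of theca cells in the value of APOD was not tested.

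RPRM, reprimo, known in human and mouse cells as a p53 target that holds cells before mitosis, read 38.1 and 97.1 in medium and 539.9 and 438 in small, 6.42-fold lower (-2.68 ± 0.41, adjusted p = 0.0621). TNFRSF6B, a soluble decoy receptor for Fas ligand, read 12.1 and 19.8 in medium and 141 and 111 in small (-2.15 ± 0.33, adjusted p = 0.0621). GAL, the neuropeptide galanin, read 17 and 2.3 in medium and 104 and 91.2 in small (-2.21 ± 0.43). PPP1R1B, an inhibitor of protein phosphatase 1 best known from striatal neurons, read 1.5 and 4.1 in medium and 141 and 49.7 in small (-2.44 ± 0.49). For GAL and PPP1R1B both medium arrays were near the bottom of the signal range.

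4 further genes were singled out after their values had been seen. CARTPT encodes the CART peptide, known in cattle to lower oestradiol output of granulosa cells. It read 50.2 and 208 in medium and 1948 and 1662 in small, 14.9-fold lower (-3.90 ± 0.78, adjusted p = 0.221), and 392 and 192 in large follicles. HAPLN3, a link protein that joins hyaluronan to proteoglycans, read 77.9 and 162 in medium and 399 and 643 in small (-2.01 ± 0.40, adjusted p = 0.221). IHH, Indian hedgehog, a granulosa signal received by the theca in the mouse ovary, read 54.3 and 147 in medium and 236 and 705 in small (-1.99 ± 0.68, adjusted p = 1). MEST, an imprinted gene of the hydrolase fold family, read 156 and 292 in medium and 1828 and 1406 in small (-2.82 ± 0.61, adjusted p = 0.288). Its other probe sets did not all share that size, with -2.29, -0.52 and, with overlapping groups, -0.14.

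Genes of DNA replication and mitosis stood on the side of medium follicles nearly throughout. Of 38 tested, 35 were higher and 3 lower, and 16 were higher without overlap (share over all genes 13.1%). Of these 38, 0 were called, and 1 reached an unadjusted p under 0.05. The median difference was 0.48, and 0.24 to 0.60 with 1 array left out. Without small replicate 1, 26 were higher and 12 lower. BUB1, a kinase of the spindle checkpoint, read 202 and 234 in medium and 89.8 and 126 in small (0.93 ± 0.38). CCNB1, cyclin B1, which drives entry into mitosis, read 272 and 349 in medium and 152 and 210.2 in small (0.73 ± 0.36). In theca cells the median of the same list between the same sizes was 0.45.

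D-type cyclins and cell cycle inhibitors were divided, with 6 of 12 higher and 6 lower in medium. Beside RPRM, CDKN1C, the imprinted CDK inhibitor p57, was lower: it read 107 and 179 in medium and 1184 and 475 in small (-2.31 ± 0.56, adjusted p = 0.464). A second, dim probe set of CDKN1C gave -0.17 with overlap. GADD45B, a stress-induced gene named here after its values were seen, lay the other way, at 606 and 878 in medium and 284 and 340.0 in small (1.19 ± 0.36, adjusted p = 0.952).

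Among genes of the LH surge and of ovulation, 8 of 11 tested were lower in medium follicles, with 0 called and a median of -0.48. Of the 8 lower genes 5 did not overlap (share over all genes 13.5%). PTGES, the terminal synthase of prostaglandin E2, read 9.6 and 37.4 in medium and 172 and 202 in small, 5.47-fold lower (-2.45 ± 0.41, adjusted p = 0.0788). PTX3, pentraxin 3, a matrix protein of the expanding cumulus, read 30.7 and 30.5 in medium and 225 and 156 in small (-2.13 ± 0.43, adjusted p = 0.221). In large follicles PTGES read 128 and 69.2, between the medium and the small values, and PTX3 read 160.1 and 99.5, with 1 array inside the range of the small ones.

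Immediate early and heat shock genes, which cells induce within minutes of a growth signal or of stress, leaned the same way. Of 23 tested, 17 were lower and 6 higher in medium, with a median of -0.39. Without overlap 12 were lower and 1 higher (shares over all genes 13.5% and 13.1%). In this list 0 were called, and 7 were lower at an unadjusted p under 0.05. FOS, a subunit of the AP-1 factor, read 468 and 362 in medium and 2243 and 1115 in small (-1.90 ± 0.42, adjusted p = 0.331). The 2 small arrays of FOS were further from each other in signal than the nearer one was from the medium arrays. IER2, another immediate early gene, read 342 and 257 in medium and 810.1 and 581 in small (-1.17 ± 0.36). EGR1, a zinc finger factor that the LH list also holds, read 1382 and 880.2 in medium and 2979 and 1879 in small (-1.09 ± 0.35), while its second probe set gave -0.21 with overlap. NR4A1, an orphan nuclear receptor with the same kind of induction, read 80.9 and 92.2 in medium and 314 and 236 in small (-1.49 ± 0.50).

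CLU, clusterin, a secreted chaperone known to be abundant in regressing tissue, read 1319.6 and 1192 in medium and 3048 and 3574 in small (-1.38 ± 0.35, adjusted p = 0.544). In the list of apoptosis and atresia genes 8 of 9 tested were lower in medium, 4 without overlap (share over all genes 13.5%). Of the 9, 0 were called, and the list median was -0.33. That median was -0.15 without medium replicate 1. BCL2, which blocks apoptosis, was among the lower members at 808 and 1626 in medium and 1355 and 2084 in small, with overlap. Its other probe sets overlapped as well and gave -0.30, 0.17 and 0.21, so its direction was not settled.

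Of 19 tested genes of cholesterol synthesis and uptake, 7 were higher in medium follicles without overlap (share over all genes 13.1%) and 0 were called. With overlap allowed 16 were higher, with a median of 0.31, and 3 were lower, with MVK the furthest at -1.01. At an unadjusted p under 0.05 (limma) 3 were higher and 1 lower. The count of higher genes fell to 10 of 19 without medium replicate 2 and to 11 without small replicate 1. The median was 0.83 without medium replicate 1 and 0.18 without medium replicate 2. CYP51A1, the lanosterol demethylase, read 321 and 288 in medium and 136 and 112 in small (1.20 ± 0.43). SQLE, squalene epoxidase, read 384 and 778 in medium and 258 and 236 in small (1.10 ± 0.46). The median of the list in theca cells was -0.23 between the same sizes.

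**Figure D3:**
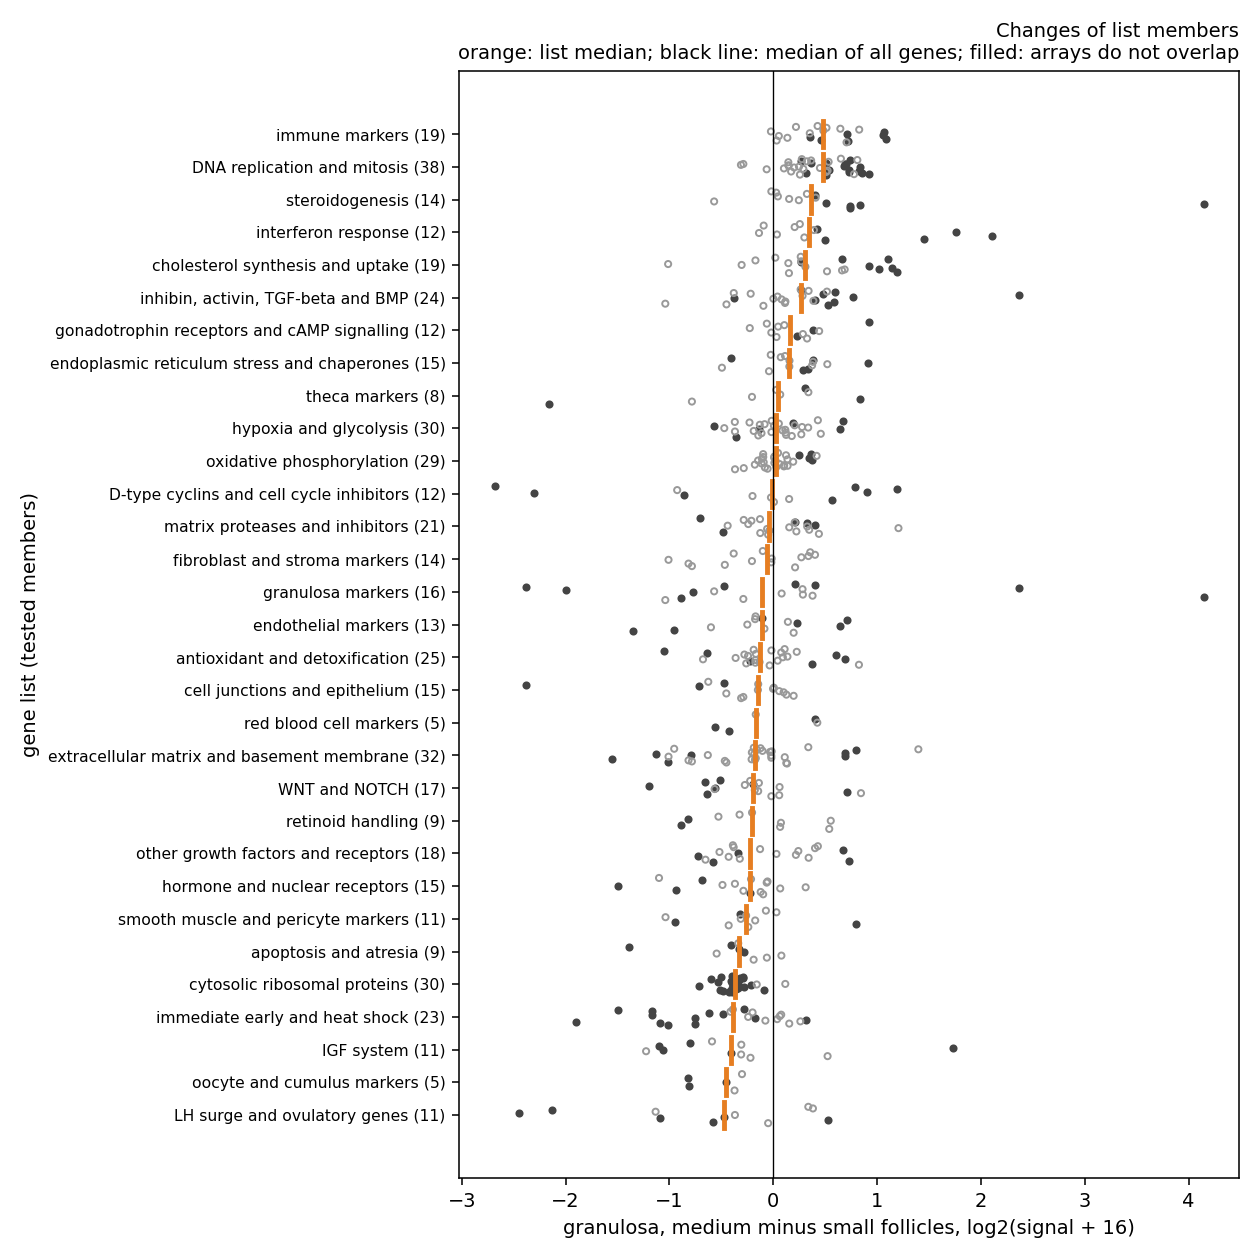
Medium minus small difference in granulosa cells (x axis, log2) for the tested members of 31 gene lists (rows, with the number tested). Points are genes, filled where the 2 medium arrays do not overlap the 2 small arrays, orange bars are list medians and the black line is the median of all genes. List medians run from 0.48 for immune markers and for DNA replication and mitosis to -0.48 for LH surge and ovulatory genes.

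Of 32 tested genes of extracellular matrix and basement membrane, 24 were lower in medium follicles and 8 higher, 4 lower and 3 higher without overlap, and 0 were called. Over all genes 13.5% were lower and 13.1% higher without overlap, so the list's counts of 4 and 3 were no larger a share. COL6A1, a chain of collagen VI, read 103 and 102 in medium and 352 and 313 in small (-1.55 ± 0.39, adjusted p = 0.545), and its dimmer probe sets gave -0.40 and, with overlap, -0.31. ITGB3, an integrin subunit that binds matrix, read 153 and 121 in medium and 327 and 308 in small (-1.13 ± 0.37). The summed signal of 14 fibroblast and stroma markers was 9976 and 2285 on the medium arrays and 5285 and 7055 on the small arrays. That sum set the medium replicates further apart than the sizes, and the list median of the matrix genes was -0.85 without medium replicate 1 and 0.29 without medium replicate 2. Its part in the matrix values was not tested. COL3A1, a fibrillar collagen, read 1093 and 224 in medium and 774 and 1029.6 in small. It is itself 1 of the 14 markers in that sum, so its like order of arrays adds nothing separate.

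Immune cell markers were higher in medium follicles for 18 of 19 tested genes, with 0 called and a median of 0.48. Of the 18 higher genes 7 did not overlap (share over all genes 13.1%). CD14, the endotoxin co-receptor of macrophages, read 244 and 102 in medium and 67 and 66.1 in small (1.09 ± 0.49). CSF1R, the receptor for the macrophage growth factor CSF1, read 45 and 33 in medium and 6 and 15 in small (1.07 ± 0.49). The median rested on medium replicate 1. The sum over 19 markers was 2194 on medium replicate 1 and 983 on medium replicate 2, against 854 and 963 on the small arrays, and the list median was -0.0034 without medium replicate 1. PTPRC, the pan-leukocyte marker CD45, was at 62.4 and 17.1 in medium and 25.6 and 3.8 in small. The immune sum was 20566 and 8042 on the large granulosa arrays.

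Interferon response genes were higher for 10 of 12 tested genes, 5 without overlap (share over all genes 13.1%). Of the 12, 0 were called, and the median was 0.35. IFI6, an interferon-induced mitochondrial protein, read 1261 and 655 in medium and 137 and 285 in small (2.11 ± 0.69). ISG15, a ubiquitin-like modifier, read 614 and 310.2 in medium and 84.8 and 161 in small (1.76 ± 0.66). IFI27, also interferon-induced, read 1321 and 732 in medium and 297 and 413 in small (1.45 ± 0.56). For these 3 genes medium replicate 1 was the highest of the 4 arrays and small replicate 1 the lowest. The list median was 0.074 without medium replicate 1.

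Endothelial markers gave no common direction, with 5 of 13 tested genes higher in medium and 8 lower, and 7 higher without medium replicate 2 or small replicate 1. CLDN5, a tight junction protein of endothelium, read 70.2 and 60.3 in medium and 163 and 225 in small (-1.35 ± 0.38, adjusted p = 0.709), while PECAM1 read 22.4 and 23.1 in medium and 15.8 and 18.2 in small. The endothelial sum over 14 markers was 299 and 201 on the medium arrays and 347 and 418 on the small arrays. Oocyte and cumulus markers were lower in medium for 5 of 5 tested genes, all dim: ZP2, an egg coat protein, read 10.9 and 4.3 in medium and 26.5 and 24.1 in small. Smooth muscle markers were lower for 9 of 11 tested genes, and for 6 without medium replicate 2. MYH11, smooth muscle myosin, was among the lower ones at 247 and 715 in medium and 1097 and 712 in small. The red blood cell sum over 7 markers was 90.1 and 59.7 on the medium arrays and 76.2 and 79.4 on the small arrays.

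Hormone and nuclear receptors were lower in medium for 13 of 15 tested genes, 4 of them without overlap (share over all genes 13.5%). The list median was -0.23. That median was -0.031 without medium replicate 1, with 9 of 15 lower, and -0.59 without medium replicate 2. NR2F1, an orphan receptor, read 76.3 and 104 in medium and 258 and 132 in small (-0.93 ± 0.35). WNT and NOTCH genes were lower for 13 of 17, 6 without overlap (share over all genes 13.5%). Their median was -0.20 (-0.053 without small replicate 2). LRP5, a WNT co-receptor, read 125 and 220.5 in medium and 275 and 580.5 in small (-1.19 ± 0.45). SOD3, the extracellular superoxide dismutase, read 40.9 and 125 in medium and 139 and 207 in small (-1.05 ± 0.45), in an antioxidant list with 10 of 25 genes higher and 15 lower, and 17 higher without small replicate 2. RARRES2, the secreted protein chemerin, read 3681 and 4053 in medium and 5879 and 7904 in small (-0.82 ± 0.35). HERPUD1, a protein of endoplasmic reticulum stress, read 2808 and 3919.8 in medium and 1507 and 2034 in small (0.92 ± 0.44), and 11 of the 15 genes of its list were higher in medium. Without medium replicate 1 it was 6 of 15, with a median of -0.018 against 0.16 with all arrays.

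In lists of basic metabolism the direction depended on the small replicate kept. Hypoxia and glycolysis had 16 of 30 genes higher in medium and a median of 0.030, which was -0.26 without small replicate 1 and 0.27 without small replicate 2. LDHA, lactate dehydrogenase A, read 2476 and 2340.4 in medium and 1419.8 and 1672 in small (0.64 ± 0.35), and SLC2A3, a glucose transporter, 169 and 193 in medium and 113 and 102 in small. The 2 other probe sets of LDHA overlapped between sizes. Oxidative phosphorylation had 18 of 29 higher and a median of 0.024, with 7 higher (-0.24) without small replicate 1 and 27 higher (0.23) without small replicate 2. Matrix proteases and their inhibitors had 10 of 21 higher, 6 without medium replicate 1 and 19 without medium replicate 2, with TIMP3, an inhibitor of metalloproteases, at 111 and 52.2 in medium and 161 and 114 in small. Cell junction and epithelium genes had 5 of 15 higher, and 9 without medium replicate 2, with JUP, plakoglobin of the cell junctions, at 332 and 564 in medium and 621 and 834 in small. Other growth factors and receptors had 8 of 18 higher, with LIF, a cytokine, at 15.7 and 35.3 in medium and 4.3 and 15.4 in small. Over the 31 lists, 0 of 497 tested genes were called, and 44 (8.85%) had an unadjusted p under 0.05, beside 3.5% of all genes. The lists were chosen with earlier results of these data known, so nothing is read from these shares.

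Cytosolic ribosomal proteins were lower in medium follicles for 29 of 30 tested genes, 28 of them without overlap (share over all genes 13.5%). Their median was -0.36 (-0.18 without small replicate 2), and 0 were called. RPL32, a large subunit protein, read 3739 and 3652 in medium and 5092 and 7241 in small (-0.71 ± 0.32), and RPS20, a small subunit protein, 4792 and 5050.3 in medium and 6330.2 and 8833 in small (-0.60 ± 0.30). These probe sets are among the brightest of the array, and the brightest probe sets shared the shift. Of 158 probe sets with a mean level of 12 to 14 (log2), 89.9% were lower in medium, and 64.6% lower without overlap, with a median of -0.29. Without the ribosomal list, 127 of these bright probe sets had a median of -0.27. The median in dimmer classes lay between -0.015 and 0.015. After quantile normalization the median of the ribosomal list was -0.070 and 24 of 30 were lower, so that its size depended on the scaling.

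The same step from small to medium follicles was read in theca cells on arrays that share none with the granulosa comparison. Over 17236 probe sets, the medium minus small difference of granulosa and that of theca correlated at 0.228 (Pearson) and 0.195 (Spearman) across probe sets, which are not independent replicates. In theca 2 probe sets were called (0.0116%). CYP19A1 in theca read 912 and 184 in medium and 21.9 and 52.8 in small, a difference of 3.08 ± 0.63. INHBA in theca read 2847 and 956 in medium and 171 and 135 in small, a difference of 3.31 ± 0.50. Both are granulosa genes. The summed granulosa markers, which include these 2 genes, were 23800 and 13057 on medium theca arrays and 10152 and 13229 on small theca arrays. The part of granulosa cells in the theca values was not tested. RPRM read 0.7 and 6.4 in medium and 45.7 and 111 in small theca (-2.19 ± 0.41), and LTF 75.5 and 51.5 in medium and 326 and 227 in small theca (-1.87 ± 0.46).

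**Figure D4:**
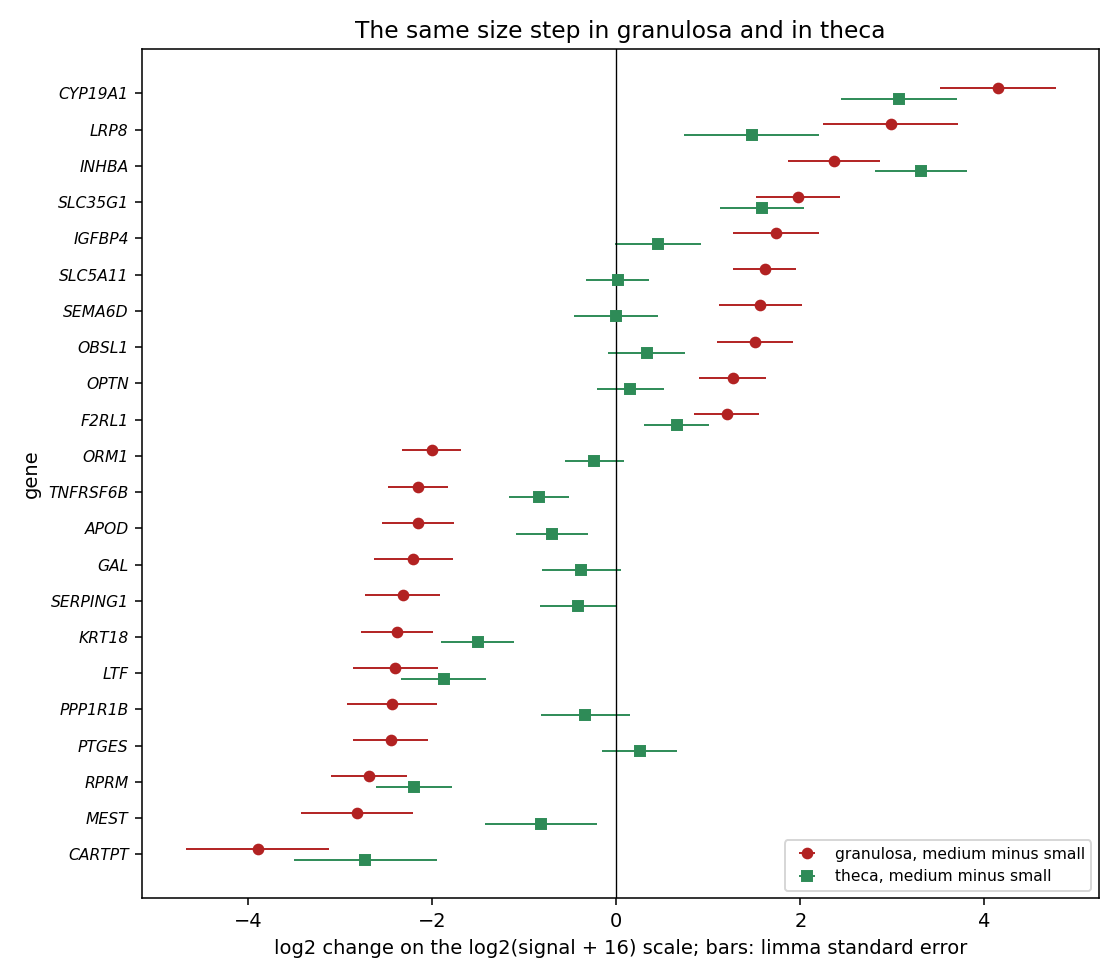
Medium minus small difference of 22 named genes (x axis, log2) in granulosa (red circles) and in theca (green squares), with limma standard errors as bars. CYP19A1 and INHBA were higher and KRT18, LTF, RPRM and CARTPT lower in medium follicles of both layers, while PTGES lay at -2.45 in granulosa and 0.25 in theca.

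Whether a granulosa difference departed from that of theca was tested as an interaction in the same model. 0 of 17236 probe sets were called (0%), and the smallest adjusted p was 0.999 (limma). At an unadjusted p under 0.05 there were 433 (2.51%), below the 5% expected with no change. PTGES had the largest departure in size among the genes of the plot of both layers, with -2.71 ± 0.58 (granulosa minus theca, unadjusted p = 0.000346): in theca it read 56.8 and 58.9 in medium and 65.3 and 31.2 in small. ORM1 gave -1.76 ± 0.45 (unadjusted p = 0.00168), with theca at 11.1 and 7 in medium and 8.9 and 19 in small. CYP51A1 gave 2.11 ± 0.60 (unadjusted p = 0.00361), with theca at 157 and 221 in medium and 648 and 205 in small. SLC5A11 gave 1.60 ± 0.48 (unadjusted p = 0.00529), with theca at 77.5 and 67.7 in medium and 82.4 and 62.1 in small. For CYP19A1 it was 1.07 ± 0.89 and for KRT18 -0.88 ± 0.56, both within 2 standard errors of 0. No difference between the layers was detectable at these 2 arrays per group. Theca small replicate 1, with the high GAPDH ratio, stands in this contrast, and 0 probe sets were called without it (607 at an unadjusted p under 0.05).

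Large follicles extend the series of sizes, and comparisons with them share arrays with the one above, so values are given side by side. In granulosa, the difference of large minus small called 382 of 17236 probe sets (2.22%) and that of large minus medium 117 (0.679%). CYP19A1 had 113 and 126.4 in small, 3114 and 1820 in medium and 3134 and 1820.5 in large follicles. KRT18 had 5964 and 4945 in small, 1317.5 and 801 in medium and 1425 and 1019 in large. Both genes parted between small and medium, with large near medium. LTF had 1713 and 1154 in small, 154.8 and 408 in medium and 102.2 and 163.7 in large. RPRM had 539.9 and 438 in small, 38.1 and 97.1 in medium and 52.8 and 46.8 in large. The large values of LTF and RPRM overlapped the medium ones. CD14 had 67 and 66.1 in small, 244.5 and 101.9 in medium and 1433 and 741 in large, so its widest gap fell between medium and large. FOS had 2243 and 1115 in small, 468 and 362 in medium and 719.6 and 458 in large.

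**Figure D5:**
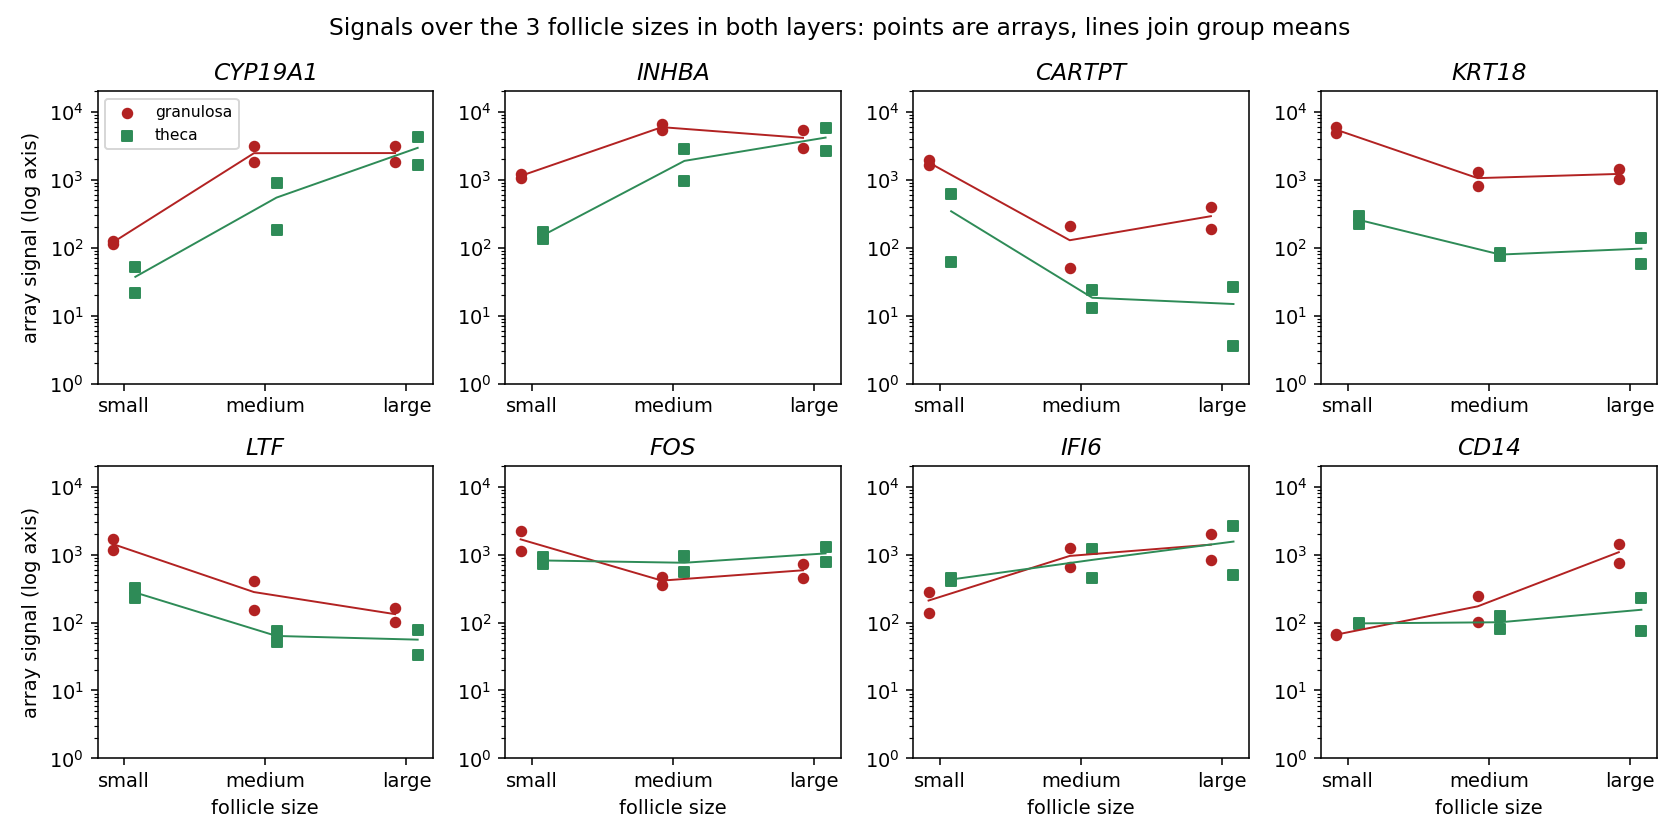
Signal of 8 genes (log axis) over small, medium and large follicles in granulosa (red circles) and theca (green squares); points are arrays and lines join group means. In granulosa CYP19A1 and INHBA separate between small and medium and stay near the medium level in large, CARTPT, KRT18 and LTF run the other way, and CD14 is highest in large follicles.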

How the data were processed

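The authors deposited linear signal intensities for 24128 probe sets on each array, already scaled, since every array had a 2% trimmed mean of 125.03 to 125.04. Which software made them is not given in the sources used. After removal of 112 control probe sets, 24016 stayed, and the platform annotation gave 1 symbol for 13292 of them, several for 86 (left unnamed) and none for 10638. Of the named ones, 13263 matched by Entrez identifier to RefSeq genes of ARS-UCD2.0, used for names only.

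Signals were turned into log2(signal + 16), and every fold is on that scale, which understates folds of dim genes. Probe sets with a group mean above the 40th percentile of all values (signal 22.5) in at least 1 of 6 groups were tested, 17236 for 7893 genes. limma 3.58.1 in R 4.3.3 fitted a mean per group over 12 arrays (6 residual degrees of freedom, prior 7.92), with Benjamini-Hochberg adjustment within each contrast. The labels state no test. The script was tested on simulated data. The p-values measure the spread between pools.

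A gene stands for its brightest probe set. Named were 13 fixed ovarian genes, up to 10 genes per direction of smallest p with a log2 change of at least 1 and no overlap, and up to 2 members per list of smallest p. Members and lists were chosen with earlier results of these data known. CARTPT, MEST, PEG3, HAPLN3, IHH, EGR1, IGFBP5, IFI27, GADD45B and the imprinted list were chosen after their values were seen here, as were the alternatives that leave out arrays of other groups and the block within layers. Other alternatives changed the pseudocount, filter, scaling, prior and arrays fitted.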

Additional observations from a re-analysis of the deposited data

How the results depend on the processing

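In the model over 12 arrays 1 probe set was called between medium and small granulosa cells, 0 higher and 1 lower. The count was 0 with log2(signal + 1) (651 at an unadjusted p under 0.05), 0 with no filter (774 of 24016), 0 with an intensity trend in the prior (595), 2 with median centring (1 higher, CYP19A1), 3 with granulosa arrays alone (2 higher, CYP19A1 and LRP8), 12 with the 4 arrays alone (6 higher and 6 lower) and 12 without both arrays that stand apart (1 higher and 11 lower). With log2(signal + 64), the stricter filter (10218 tested), quantile normalization and the robust prior it was 1, the same probe set. That probe set was called in 9 of 25 alternatives, with adjusted p-values of 0.0166 to 0.765 (limma). Leaving out 1 array gave 0 to 8 calls, 0 to 1 higher and 0 to 7 lower: 0 without any of the 4 compared arrays (498 to 841 at an unadjusted p under 0.05), and 8 without theca small replicate 1 or 2, a change that alters only the estimate of the spread. Between layers 0 probe sets were called in every alternative but 1, where MEST was called without theca small replicate 2; the range over left-out arrays was 0 to 1. Of the list members 0 were called in the main setting, 1 with median centring, 1 with granulosa arrays alone, 4 with the 4 arrays alone, 3 without both arrays that stand apart, and 0 to 3 with 1 array left out. Why counts moved was not tested beyond this.

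Named genes with a difference near 0 or with wide replicates changed direction when 1 array was left out. The ranges were -0.46 to 1.03 for FSHR, -0.85 to 0.91 for STAR (-0.023 after quantile normalization), -0.27 to 0.58 for HSD3B1, -1.66 to 0.52 for HSD17B1, -0.28 to 0.85 for INHA, -0.13 to 0.29 for FST, -2.10 to 0.017 for AMH and -1.01 to 0.60 for INSL3. They were -1.64 to 0.074 for COL1A1, -1.92 to 0.29 for COL3A1 and -0.018 to 1.06 for DNAJC3. The median of 15 of 31 lists changed sign with 1 of the 4 compared arrays left out. Among them were immune markers, with 9 of 19 higher without medium replicate 1 and 18 without medium replicate 2, and matrix genes, with 9 of 32 higher without medium replicate 1 and 23 without medium replicate 2. Endoplasmic reticulum stress, hypoxia and glycolysis, and oxidative phosphorylation were others.

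The labels do not say that a replicate number marks shared animals. The main model did not take the numbers as pairs, since not every pair of groups correlated over 0.1. That reason concerns all 6 groups and is no ground against pairing medium with small granulosa, which did correlate over 0.1. A deviation shared by their same-numbered arrays therefore stays in the spread of that model. Standard errors and p-values given for this comparison come from unpaired fits unless a block is named. Deviations from the group means correlated at 0.402 between medium and small granulosa, 0.0727 and 0.212 in the other granulosa pairs, 0.14 to 0.267 within theca and -0.335 to 0.142 between layers. The same-numbered medium and small arrays were more alike (0.939 and 0.943, Spearman) than arrays of 1 size (0.918 and 0.924). With the replicate block 0 probe sets were called (588 at an unadjusted p under 0.05), 0 higher and 0 lower, and with a replicate block within each layer, added after the data were seen, 0 (892, or 5.18%, against 3.37% without a block). Signals carry no read depth; the 2 arrays per group set the precision.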

Other observations

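Imprinted genes, which are expressed from 1 parental allele, were listed after MEST, CDKN1C and PEG3 had been seen among the lower genes, so their counts describe the list and support nothing. Of 21 entries 17 were on the array and tested, and 0 were called. In medium follicles 13 were lower and 4 higher, with a median difference of -0.30 in granulosa and -0.11 in theca. Without overlap 6 were lower and 2 higher in granulosa (shares over all genes 13.5% and 13.1%). PEG3, a zinc finger protein, read 142.4 and 120.6 in medium and 608.5 and 244.1 in small granulosa (-1.45 ± 0.51), and 2 of its other probe sets gave -1.75 and -1.85 while another gave 0.077. NNAT, neuronatin, read 114.2 and 150.8 in medium and 223.5 and 304.1 in small (-0.91 ± 0.32). PEG10, a gene of retroviral origin, lay the other way at 590.3 and 583 in medium and 463 and 521 in small (0.25 ± 0.39). IGF2 overlapped, at 168.8 and 200.6 in medium and 196.8 and 272.8 in small granulosa, beside 3040.1 and 3394 in medium and 4707 and 2567 in small theca.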
